A study of Homo sapiens with 8 samples.

Results

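A set of genes of the ovulating follicle, 9 of 19648 protein-coding genes examined, were taken by name, with no peak value in the rule, though earlier results of these data were known when they were named. They are VCAN, HAS2, TNFAIP6 and PTX3 of the cumulus matrix, GJA1 of gap junctions, PTGS2 of prostaglandin synthesis, and the epidermal growth factor (EGF)-like ligands AREG, EREG and BTC. Every histone peak inside one of these genes or within 10 kb of either end was collected. The peaks come from KGN cells, an established human ovarian granulosa tumour line. The cells were grown without butyrate (control) or with 1 mM butyrate for 6 h. Butyrate is a fatty acid that blocks histone deacetylases. Chromatin immunoprecipitation with sequencing was done for 2 histone marks, H3K9ac (acetyl-lysine 9 of histone H3) and H4K16ac (acetyl-lysine 16 of H4), and 1 library was made per mark and condition. There are no replicates, so each difference below is a difference between 2 libraries, with no test and no p-value. As a model of the ovulating follicle the system is limited: it is 1 tumour line without an oocyte or separate cumulus cells, and the labels name no gonadotropin in either group. Of 8 granulosa markers, 3 (FOXL2, INHA and CYP11A1) had an H3K9ac promoter peak in both libraries, as did 52.1% of all genes. FSHR, CYP19A1, AMH, NR5A1 and WT1 had one in neither, as did 38.4% of all genes.

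In the ovary, the luteinizing hormone surge acts on mural granulosa cells through cyclic AMP and makes them release AREG, EREG and BTC. These ligands act on EGF receptors of cumulus cells, which then switch on PTGS2, HAS2, TNFAIP6 and PTX3 and build a hyaluronan-rich matrix around the oocyte. H3K9ac lies mainly at the starts of active genes, and H4K16ac goes with open, transcribed chromatin.

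Of the 9 genes, 4 carried H3K9ac at the promoter in each condition, and these were PTGS2, AREG, EREG and BTC. Over all genes a promoter peak was listed for 52.3% in control and 61.4% with butyrate. A promoter peak is one that reaches within 1 kb of the gene's start. The promoter sequences of these 4 genes are shown because the control and butyrate peaks differed in how far they reached over this stretch. Each runs from 250 bases before to 50 bases after the gene's first base, 5′ to 3′ along the gene, as given by RefSeq for GRCh38.p14. Capitals mark the bases inside a butyrate H3K9ac peak. The windows are chr1:186680374-186680673 (minus strand) for PTGS2, chr4:74444886-74445185 (plus) for AREG, chr4:74364895-74365194 (plus) for EREG and chr4:74794474-74794773 (minus) for BTC.
PTGS2: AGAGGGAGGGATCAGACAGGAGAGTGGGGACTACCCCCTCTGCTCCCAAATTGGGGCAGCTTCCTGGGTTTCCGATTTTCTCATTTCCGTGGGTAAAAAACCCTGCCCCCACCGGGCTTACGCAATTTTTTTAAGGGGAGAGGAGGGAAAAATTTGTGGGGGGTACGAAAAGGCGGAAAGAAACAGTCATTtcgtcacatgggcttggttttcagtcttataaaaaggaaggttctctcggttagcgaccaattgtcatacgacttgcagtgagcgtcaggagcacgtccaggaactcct
AREG: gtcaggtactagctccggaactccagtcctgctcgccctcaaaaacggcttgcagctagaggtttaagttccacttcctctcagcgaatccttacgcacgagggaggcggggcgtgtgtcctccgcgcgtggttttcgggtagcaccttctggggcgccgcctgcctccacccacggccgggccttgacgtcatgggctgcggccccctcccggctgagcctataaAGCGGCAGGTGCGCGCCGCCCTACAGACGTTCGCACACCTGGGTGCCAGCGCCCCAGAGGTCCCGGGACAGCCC
EREG: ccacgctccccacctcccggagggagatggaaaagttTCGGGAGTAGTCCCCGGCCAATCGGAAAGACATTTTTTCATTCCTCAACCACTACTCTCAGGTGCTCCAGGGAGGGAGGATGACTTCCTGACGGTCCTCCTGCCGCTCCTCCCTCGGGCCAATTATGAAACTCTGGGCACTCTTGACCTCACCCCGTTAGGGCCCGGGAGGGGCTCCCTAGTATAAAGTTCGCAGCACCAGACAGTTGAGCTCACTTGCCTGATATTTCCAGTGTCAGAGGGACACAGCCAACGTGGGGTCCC
BTC: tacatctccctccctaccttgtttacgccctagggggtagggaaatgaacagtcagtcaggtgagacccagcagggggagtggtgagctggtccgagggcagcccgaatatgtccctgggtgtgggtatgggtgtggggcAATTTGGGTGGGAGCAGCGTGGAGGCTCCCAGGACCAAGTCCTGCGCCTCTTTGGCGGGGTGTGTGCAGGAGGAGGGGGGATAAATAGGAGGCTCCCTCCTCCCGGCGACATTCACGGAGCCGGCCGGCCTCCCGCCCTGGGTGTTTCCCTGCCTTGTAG

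Butyrate peaks covered 263 of the 300 bases at EREG, 191 at PTGS2, 160 at BTC and 74 at AREG. Control peaks covered 110 of the 300 bases at AREG and 0 at the other 3 genes, whose control peaks lay beside this window. At EREG the TATA box (TATAAA) lay at −32 to −27 (0 is the first base of the gene) and inside the butyrate peak. PTGS2 has a TATA box at the same position, and there it fell in the gap between 2 butyrate peaks, as did the half-site of the cyclic AMP response element (CRE) next to it. AREG has a full CRE (TGACGTCA) at −65 to −58, of which 3 bases were in the control peak and 0 in the butyrate peak. A match is a run of letters and not a shown binding site. The narrowest H3K9ac peak listed was 232 bp in control and 251 bp with butyrate, so peak edges do not resolve single motifs. Whether the mark at these motifs differs between the conditions was not tested.

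EREG encodes epiregulin, and its promoter had the butyrate peak with the highest −log10 q of the 9 genes. In control, a peak of 250 bp with a −log10 q of 2.05 lay on chromosome 4 at 74365824 to 74366073, 679 to 928 bp past the start in intron 1. With butyrate, a peak of 1100 bp at 74364932 to 74366031 reached from −213 to 886 bp relative to the start, with a −log10 q of 10.1. The q here is the false discovery estimate of the peak caller, MACS2. A second butyrate peak of 410 bp, at −816 to −407 bp, was weaker, with a −log10 q of 2.55 and no control counterpart. The peaks at the EREG promoter thus covered both sides of the start with butyrate and lay past it in control. A non-coding RNA gene, LOC105377276 (74278294 to 74365341), spans the EREG start and holds all of the 410 bp peak and part of the 1100 bp peak, so the mark there cannot be assigned to EREG alone.

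EREG also had the only H3K9ac peaks of the 9 genes that were in control alone. They formed a pair in intron 1, at 74375374 to 74375752 and at 74375915 to 74376244, 10229 to 10607 and 10770 to 11099 bp past the start. Each had a summit of 12 fragments and a −log10 q of 3.99. Relative to the genome-wide background of the library that is 5.74, with an exact 95% Poisson interval of 2.96 to 10.0, which covers counting error only. In the butyrate library a site at genome background needed 9 fragments to be listed, so up to 8, or 2.93 times background, could be present there without a peak. The lower bound for the control pair and the limit for the butyrate library are nearly equal, so a loss of signal at the pair is not shown.

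BTC encodes betacellulin. Its control peak of 278 bp (chromosome 4, 74794057 to 74794334) lay 189 to 466 bp past the start and had a −log10 q of 3.23. The butyrate peak of 943 bp (74793691 to 74794633) held all 278 of these bases, began at −110 bp and had a −log10 q of 6.89. AREG encodes amphiregulin, and its −log10 q was lower with butyrate, unlike that of the other 3 genes. Its control peak (74445076 to 74445339) was 264 bp long, with a −log10 q of 4.76. The butyrate peak (74445112 to 74445766) was longer, 655 bp, with a −log10 q of 3.77. The q depends on the depth of each library, and the butyrate library is the deeper one. The AREG summit held 13 fragments in both, which relative to the genome-wide background is 6.22 in control and 4.76 with butyrate. The ratio of 0.767 has an interval of 0.327 to 1.79 that includes 1, so a weaker mark is not shown. The butyrate peak at AREG also lay further into the gene. It began at −24 bp, where the control peak began at −60 bp, and it extended 630 bp into the gene against 203 bp.

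PTGS2 encodes cyclooxygenase 2, the inducible enzyme of prostaglandin synthesis. In control it had 1 peak of 266 bp, on chromosome 1 at 186680728 to 186680993, at −570 to −305 bp from the start, with a −log10 q of 2.55. With butyrate this peak was 671 bp long (186680483 to 186681153), held the whole control peak and had a −log10 q of 9.30. A second butyrate peak of 254 bp at 186680078 to 186680331 lay 92 to 345 bp past the start in intron 1, with a −log10 q of 5.01 and no control peak beneath it. The upstream peaks also lie on PACERR, a non-coding RNA gene at 186680654 to 186681446, and the same limit holds for PTGS2.

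**Figure D1:**
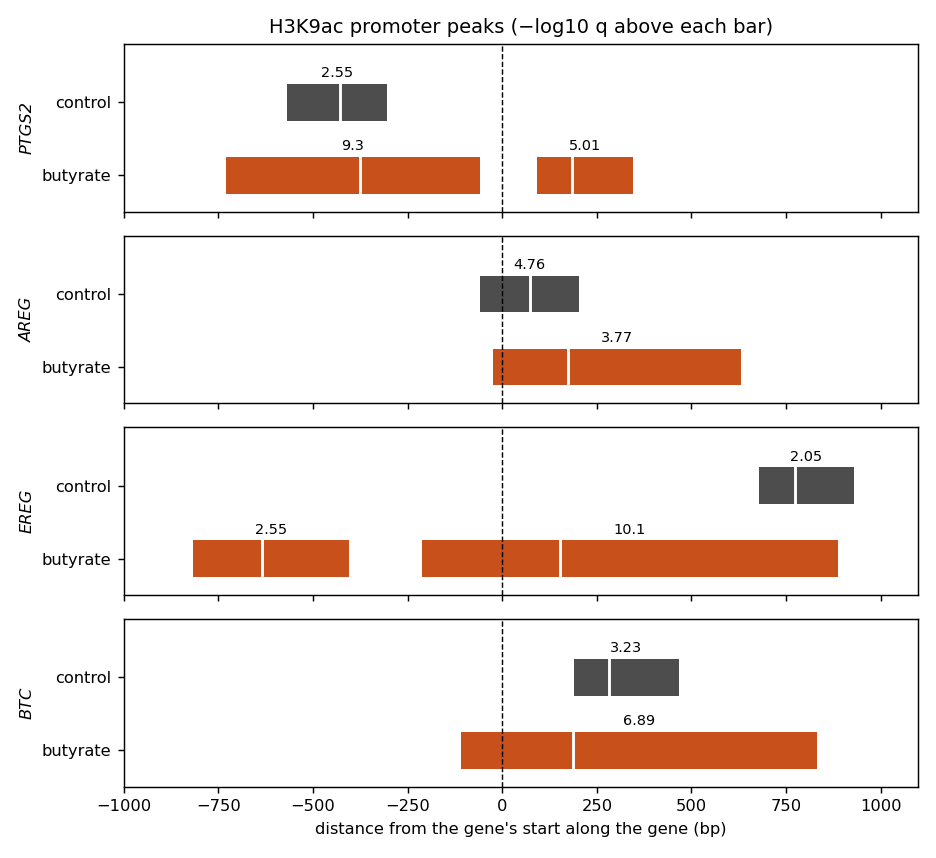
H3K9ac promoter peaks of PTGS2, AREG, EREG and BTC, drawn by distance from the gene's start along the gene in bp (dashed line at 0), with control in grey and butyrate in orange. White ticks are summits and the numbers are −log10 q. Control peaks are 250 to 278 bp long, and the strongest butyrate peak of each gene is 655 to 1100 bp long. The intronic pair of EREG lies beyond the axis.

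The number of fragments at the strongest promoter summit was compared after division by the genome-wide background of each library, 2.09 fragments in control and 2.73 with butyrate. PTGS2 had 14 fragments in control and 24 with butyrate, or 6.69 (interval 3.66 to 11.2) and 8.80 (5.64 to 13.1) times background. EREG had 12 and 22 fragments, or 5.74 (2.96 to 10.0) and 8.06 (5.05 to 12.2) times background, at summits 621 bp apart. BTC had 12 and 20 fragments, or 5.74 (2.96 to 10.0) and 7.33 (4.48 to 11.3). For AREG there were 13 fragments in each library, which is 6.22 (3.31 to 10.6) in control and 4.76 (2.54 to 8.15) with butyrate. Of the 4 summits, 3 were thus higher with butyrate and AREG lower, but the intervals of the 2 conditions overlapped at every gene.

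As a ratio of butyrate to control, the summit level was 1.41 at EREG (0.666 to 3.12), 1.31 at PTGS2 (0.653 to 2.75), 1.28 at BTC (0.595 to 2.87) and 0.767 at AREG (0.327 to 1.79). All 4 intervals include 1, so no change in summit height was detectable at this depth. The counts are taken at the highest point of each peak, which favours high values in both libraries.

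**Figure D2:**
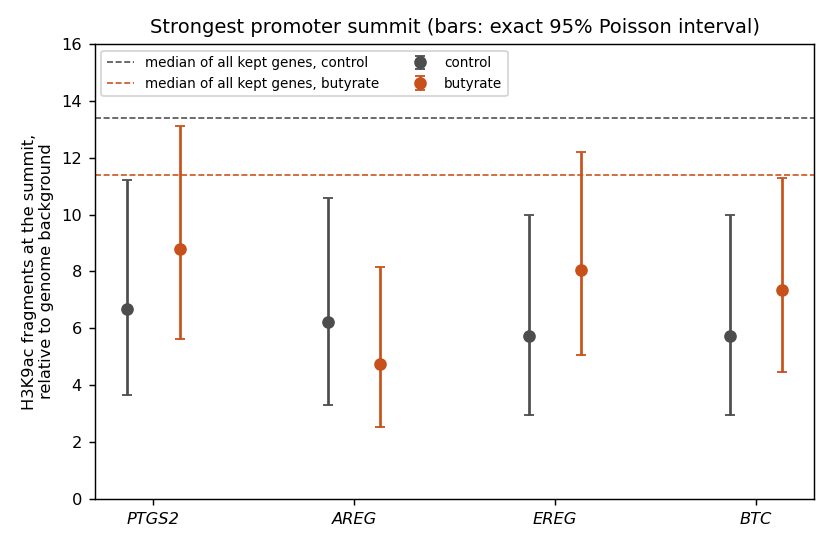
Fragments at the strongest H3K9ac promoter summit relative to the genome background of each library (y axis, no unit) for the 4 marked genes, control in grey and butyrate in orange, with exact 95% Poisson intervals. Dashed lines are the medians of all 10246 genes with a promoter peak in both conditions, 13.4 in control and 11.4 with butyrate, and every point lies below the line of its condition.

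The 4 marked promoters shared a feature that the naming rule does not use: in control their promoter peaks were among the shortest and lowest of the genes marked in both conditions. Against the whole control list they were longer than 7.33% (EREG) to 12.5% (BTC) of peaks. A peak at the promoter in both conditions was listed for 52.1% of all genes, so 4 of 9 is close to the general share, and one lost with butyrate at 0.188% of all genes and 0 of the 9. With the 22215 top peaks of each list, the lost share was 2.66% and the gained share 3.28%. At a fold of at least 5 the lost share was 6.4%. Within these 10246 kept genes the summed length of promoter peaks had a median of 1528 bp in control and 2118 bp with butyrate. EREG, AREG, PTGS2 and BTC had 250, 264, 266 and 278 bp in control, longer than only 0.771%, 1.21%, 1.28% and 1.5% of the kept genes. Only 190 of the 10246 (1.85%) were under 300 bp in control. Their control summits ranked as low, above 1.29% (EREG and BTC), 1.98% (AREG) and 3.25% (PTGS2) of the kept genes.

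With butyrate the summed promoter length came to 1510 bp at EREG, 943 bp at BTC, 925 bp at PTGS2 and 655 bp at AREG. That was 6.04, 3.39, 3.48 and 2.48 times the control length, a median of 3.43 for the 4 genes against 1.37 for all kept genes. The narrowest peak listed was 232 bp in control and 251 bp with butyrate, so the control peaks of the 4 genes had little room to become shorter. Promoter length at least 2 times the control length was seen at all 4 members and at 21.3% of the kept genes. It was also seen at 90.5% of the 190 genes that were under 300 bp in control, where the median ratio was 4.52 (quartiles 3.11 and 6.79). The ratios of EREG, PTGS2 and BTC lay within these quartiles and that of AREG below them.

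Summit level followed the same division. It was higher with butyrate at 22.6% of all kept genes, with a median ratio of 0.826, and at 72.6% of the 190 genes with short control peaks, with a median ratio of 1.22. The members had 3 of 4 higher and a median of 1.3. Even with butyrate they stayed in the lower part of the kept genes by length, above 25.3% of them at EREG, 7.5% at BTC, 7.12% at PTGS2 and 2.72% at AREG.

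**Figure D3:**
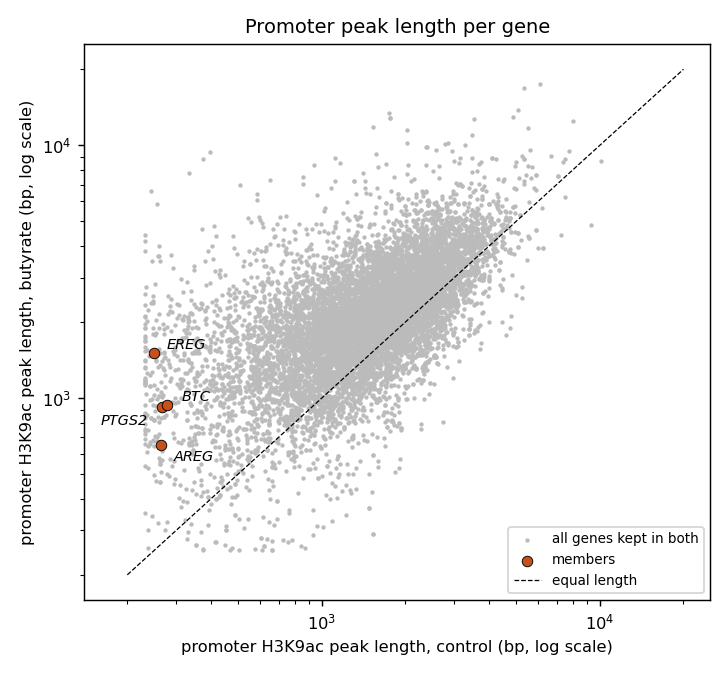
Summed length of H3K9ac promoter peaks per gene in control (x axis, bp, log scale) and with butyrate (y axis, bp, log scale) for 10246 genes marked in both conditions (grey points) and the 4 marked members (orange). The members lie at the left edge, at 250 to 278 bp in control, and above the dashed line of equal length.

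The other 5 genes, all 4 matrix genes and GJA1, had no H3K9ac peak inside the gene or within 10 kb in either condition. Their products build and tie the expanded cumulus. HAS2 is the hyaluronan synthase, VCAN (versican) a proteoglycan that binds hyaluronan, TNFAIP6 the protein that transfers heavy chains of inter-alpha-inhibitor onto hyaluronan, and PTX3 a pentraxin that helps to cross-link them. GJA1 is connexin 43, the gap junction protein of granulosa cells. Such an empty window was found at 23.6% of all genes, against 5 of the 9. A window with a peak was found at 63.6% of all genes in control, 76.2% with butyrate and 63.4% in both, against 4 of the 9 each time. A window that held a peak in control alone was found at 0.188% of all genes and 0 of the 9. Of the 7151 genes with an empty window in control, 35.0% had a peak with butyrate, and 0 of these 5 did. At the promoter, 9.24% of all genes and 19.4% of those without a control peak gained one, and again 0 of the 5 did. For HAS2 this promoter result was set in advance. It has no strand here, and such genes were kept only if no list had a peak near either end, which can lower the 9.24% and 19.4% too. No peak is not the same as no acetylation, since up to 7 fragments in control and 8 with butyrate can go unlisted at genome background.

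The nearest peaks show how far these genes lay from any listed H3K9ac peak. Around GJA1 (chromosome 6, 121435646 to 121449727) the nearest control peak was 950 kb away at HSF2, and with butyrate a weak peak at the start of TBC1D32 was 101 kb away, with a −log10 q of 1.52. VCAN (chromosome 5, 83471744 to 83582302) had its nearest peak 394 kb away in control and 393 kb with butyrate, at the starts of TMEM167A and XRCC4. HAS2 (chromosome 8, 121612116 to 121641440) went from 800 kb to 55.2 kb, with 0 control and 5 butyrate peaks within 100 kb. PTX3 (chromosome 3, 157436850 to 157443633) went from 260 kb to 50.7 kb, and the butyrate peak lay in VEPH1, the gene in whose span PTX3 sits. TNFAIP6 (chromosome 2, 151357592 to 151381340) was 28.5 kb from the RIF1 promoter peak in both. At HAS2, PTX3 and GJA1, 3 of these 5 genes, the nearest butyrate peak lay at no more than 0.5 of the control distance. So it did at 24.5% of the 4645 genes with an empty window in both lists, and this measure was chosen after the distances were seen.

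**Figure D4:**
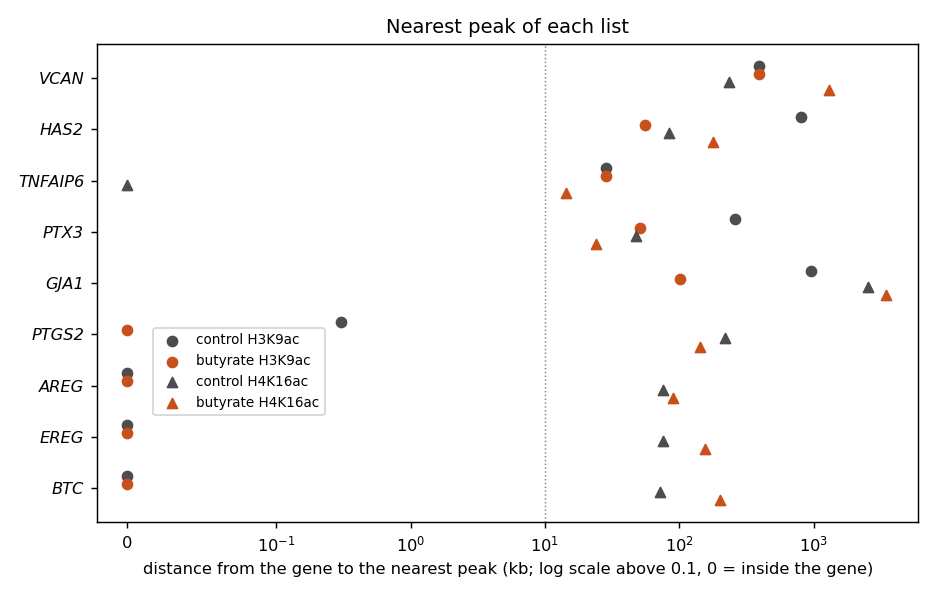
Distance in kb from each of the 9 genes to the nearest peak of each list (log scale above 0.1 kb, 0 for a peak inside the gene), with H3K9ac as circles and H4K16ac as triangles, control in grey and butyrate in orange. The dotted line marks 10 kb. The nearest H3K9ac peaks lie inside or within 0.305 kb of PTGS2, AREG, EREG and BTC, and at least 28.5 kb from the other 5 genes.

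The short stretches below are from the promoters of 3 genes without an H3K9ac peak, shown for the AP-1, C/EBP and NF-kB motifs that they contain. Capitals mark the motif, and the coordinates are GRCh38.p14 on the plus strand: chr2:151357447-151357486 for TNFAIP6, chr6:121435581-121435620 for GJA1 and chr3:157436685-157436774 for PTX3.
TNFAIP6: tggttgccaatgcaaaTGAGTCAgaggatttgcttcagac
GJA1: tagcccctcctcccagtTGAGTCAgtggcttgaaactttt
PTX3: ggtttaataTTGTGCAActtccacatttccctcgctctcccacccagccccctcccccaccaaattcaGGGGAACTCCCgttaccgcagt

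TNFAIP6 and GJA1 hold the AP-1 letters TGANTCA, as do 6.16% of 22155 promoter windows of protein-coding genes. PTX3 holds the C/EBP letters TTGCNNAA and an NF-kB site, found in 8.69% and 6.54% of windows. PTGS2 also holds the C/EBP letters, at −133 to −126 and inside the butyrate peak. The TATA box was found in PTGS2, AREG and EREG and in 9.47% of windows. A full CRE was found in AREG and in 2.26% of windows, and the half-site TGACG, which the full CRE contains, in AREG, EREG, PTGS2 and VCAN and in 27.9%. The GC box GGGCGG occurred in AREG, BTC and VCAN and in 56.3% of windows, and the E-box CACGTG in none of the 8 members with a sequence and in 8.34%. All motifs were searched on both strands.

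CpG content did not fully separate the marked from the unmarked members, because of VCAN. Over all windows the median number of CpG was 21 in 300 bases, 26 for genes with a control H3K9ac promoter peak and 8 for genes without one in either condition. AREG had 27 and PTGS2, EREG and BTC had 12 each. The unmarked promoters had 2 (TNFAIP6), 3 (GJA1), 7 (PTX3) and 15 (VCAN), and HAS2 had no sequence here. TNFAIP6, GJA1 and PTX3 thus had fewer CpG than every marked gene, and VCAN had more than 3 of the 4 marked genes. The 12 CpG of PTGS2, EREG and BTC lie below the lower quartile (18) of promoters with a control peak and within the quartiles (3 and 22) of promoters without one.

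The 3 ligand genes lie side by side on chromosome 4. The stretch from 10 kb before EREG to 10 kb past BTC (74355145 to 74804523, 449 kb) holds these 3 protein-coding genes and no other in the RefSeq table. All 5 control and all 4 butyrate H3K9ac peaks in the stretch belonged to them. Past the BTC end of the stretch, the next H3K9ac peak was 709 kb from its edge in control and 710 kb with butyrate. On the EREG side it was 196 kb from the edge in control and 42.4 kb with butyrate. The edges lie 10 kb outside the genes. That side holds EPGN, the gene of the EGF-like ligand epigen (74308470 to 74316789), which had a promoter peak with butyrate alone, with a −log10 q of 6.57. The EPGN start lies 56.7 kb from the EREG start. The butyrate peak 42.4 kb from the edge is a different one, past the EPGN start on the side of EREG, and by its distance it also lies inside EPGN.

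H3K9ac peaks at the 9 genes numbered 6 in control and 6 with butyrate, in windows of 43.6 kb in the median gene against 44.3 kb over all genes. PTGS2 went from 1 to 2, EREG from 3 to 2, AREG and BTC stayed at 1 and the rest at 0. More peaks with butyrate than in control were found at 62.0% of all genes and at 1 of the 9 members, and fewer at 4.16% and at 1 of 9. The median gene went from 1 to 3 peaks. The butyrate list holds 79356 peaks and the control list 22215, all at a q of 0.05 or less.

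In the libraries labelled H4K16ac, 1 of the 9 genes had a peak in its window in control and 0 with butyrate, against 61.0% and 50.4% of all genes. These lists reach a q of 0.304 in control and 0.621 with butyrate and hold 73586 and 33752 peaks. The peak names in these lists carry another lysine number than the labels, and which antibody was used cannot be told from the files. The single peak lay in the last intron of TNFAIP6 (chromosome 2, 151375507 to 151376026), 17915 to 18434 bp past the start and also on the non-coding LOC101929319, was 520 bp long and had a −log10 q of 2.18, above 91.8% of the control list. Its summit held 10 fragments, 6.15 times background (2.95 to 11.3). The butyrate library allows up to 6 fragments, or 2.88 times background, without a peak. A control peak without a butyrate peak in the window was found at 17.2% of all genes, the reverse at 6.61%, and a peak in both at 43.7%, against 1, 0 and 0 of the 9. The other 8 members had none in either list, as did 32.4% of all genes. No member had an H4K16ac promoter peak in either condition, where 16.7% of all genes had one in control, 3.55% with butyrate, 1.33% in both and 81.1% in neither. At a q of 0.05 or less these lists keep 29141 and 381 peaks, and the promoter shares become 9.17% and 0.0407%. With a 2.5 kb promoter window they become 27.0% and 13.0%. The nonspecific immunoglobulin libraries had 6 and 3 peaks, 0 of them at the 9 genes.

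Likeness among the members was measured as the distance between their covered base pairs (log2 of 1 plus bp) over the 4 histone lists. VCAN, HAS2, PTX3 and GJA1 were identical at 0, with no peak in any list, a state found at 20.3% of all genes. PTGS2 and BTC were the closest marked pair, at a distance of 0.07, followed by PTGS2 and AREG at 0.50. EREG stood 1.91 to 2.21 from the other marked genes, and TNFAIP6 9.03 from the unmarked ones. These distances rest on 4 libraries and describe them only.

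Genes that work with the members were looked at in the same way. In 5 related lists, the number of genes with H3K9ac at the promoter went from 30 to 46 of 68. None was lost, and the 16 gained make up 42.1% of the 38 that had none in control, against 19.4% of all such genes and 0 of 5 members. The butyrate list is the longer one, with 79356 peaks against 22215. With the 22215 top peaks of each list, the gained share over all genes fell from 9.24% to 3.28%. The related lists were not recomputed at that setting, and several of their gained peaks had a −log10 q below 5. HAS2 and other genes without a strand could not gain a promoter peak, and they are counted in the 0 of 5 and the 19.4%. These lists were not tested.

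The hyaluronan matrix list, which holds the other synthases, link proteins, receptors and proteases, went from 6 to 11 of 20 genes. ADAMTS5, a versican-cleaving protease, had the strongest gained peak, with a −log10 q of 12.4. ITIH1, a heavy chain of inter-alpha-inhibitor, had 5.43, the protease ADAMTS4 4.94 and the link protein HAPLN3 3.28. The fifth gained gene was ADAMTS9 at 3.14, named after its value was seen. CD44, the hyaluronan receptor, and ADAMTS1, a protease of the ovulating follicle, had a peak in both.

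In the prostaglandin list the count went from 6 to 10 of 12. Peaks were added at the prostaglandin transporter SLCO2A1 with a −log10 q of 11.2, the receptor PTGER1 with 7.07, HPGD, which inactivates prostaglandins, with 3.14, and the constitutive cyclooxygenase PTGS1 with 2.38. Among EGF ligands, receptors and sheddases the count went from 7 to 9 of 11, with EPGN and the receptor ERBB4 (5.49) added. EGFR, HBEGF, TGFA and the sheddase ADAM17 were marked in both conditions.

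Of 10 connexins and partners, 3 were marked in control and 7 with butyrate. Among these GJC1 had the strongest gained peak, with a −log10 q of 11.4, and GJA3, GJB2 and GJA5 had 3.77, 2.84 and 2.05. GJA1 itself stayed without a peak. The ovulatory regulators went from 8 to 9 of 15 with CEBPA, a transcription factor of the luteinizing follicle, at 11.7, and SNAP25 had no usable strand and was left out.

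**Figure D5:**
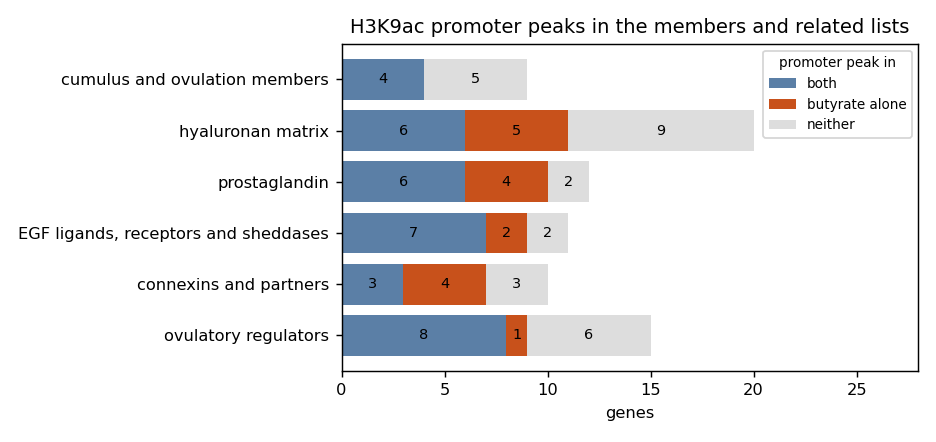
Number of genes (x axis) with an H3K9ac promoter peak in both conditions (blue), with butyrate alone (orange) or in neither (grey), for the 9 members and 5 related lists. The members show 4 and 5 genes with 0 gained, and each related list shows 1 to 5 gained genes.

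H4K16ac at the related promoters was sparse. Promoter peaks were listed for 7 of the 68 genes in control and for 2 with butyrate, against 16.7% and 3.55% of all genes. Of the 68 genes, 6 lost and 1 gained one, where 15.3% of all genes lost and 2.21% gained one. Among all genes with such a peak in control, 92.0% lost it, so a loss at 6 of the 7 is close to the general share. ADAMTS4 had the strongest lost peak, with a −log10 q of 2.7, then HYAL3 (2.4), a hyaluronidase family gene, and HMMR (1.77), a hyaluronan-binding protein. PTGES3 and RUNX2 had 1.35 and 1.06. RUNX1 had the gained peak, at 0.384, and ERBB2 had a peak in both.

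Markers of other cell types were counted beside the 3 of 8 granulosa markers and the 52.3% and 61.4% of all genes with an H3K9ac promoter peak. Oocyte markers had 2 of 5 (ZP3 and GDF9, which is also among the ovulatory regulators) and epithelial markers 1 of 3 (KRT8) in both conditions, endothelial markers 0 of 4 in both, and leukocyte markers went from 0 to 1 of 4 with CSF1R. The endothelial markers CDH5 and PECAM1 gained an H4K16ac promoter peak, with a low −log10 q of 0.912 and 0.384. The granulosa marker INHA (1.42), the oocyte marker ZP3 (1.7) and the leukocyte marker CSF1R (0.588) each lost one. Over all genes 2.21% gained and 15.3% lost an H4K16ac promoter peak, and of those with one in control 92.0% lost it. The part of these markers in the results at the 9 genes was not tested.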

How the data were processed

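Each deposited table lists the narrow peaks of 1 library. CASAVA 1.7, MACS2 2.1.0 and the build hg19 (GRCh37) are named by the submitters' processing notes, but positions match RefSeq gene starts of GRCh38.p14 and were read as GRCh38. The aligner is not given in the sources used here. The authors deposited the MACS2 fold (a ratio of fragments at the summit to those of the local control), −log10 p and −log10 q, and a score that is 10 times −log10 q (H3K9ac) or −log10 p (H4K16ac). Start positions are printed 1-based.

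With Python 3.11.15, rows that share bases were merged to 1 peak on chromosomes 1 to 22 and X. A promoter peak reaches within 1 kb of the gene's RefSeq start (the outermost start of genes with several). Of 19970 protein-coding genes, 322 without a strand but with a peak near an end were left out. The 1191 without a strand and without such a peak, HAS2 among them, were kept and counted as having no promoter peak. This can lower the promoter shares over all genes. Overlap means at least 1 bp. Fragments at a summit and background were solved from fold and p, assuming MACS2's formulas with a pseudocount of 1, and matched whole fragments for 100.0% of summits in both H3K9ac lists and the control H4K16ac list and 99.27% in the butyrate H4K16ac list, whose pileup was scaled by 0.897. The steps were tested on simulated data. The implied depth was 24.3 and 29.4 M reads for control and butyrate H3K9ac and 17.4 and 23.9 M for H4K16ac. Intervals are exact (95%) and cover counting error only. All 9 members are named, and of each related list up to 4 changed genes per mark and direction by −log10 q. The members and lists were chosen with earlier results of these data known. The 2 input samples were not analysed here. A lost H4K16ac promoter peak of the related lists is not reported here by gene. The alternatives were limits on q and fold, lists of equal length, other windows, a stricter overlap and counting of summits.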

Additional observations from a re-analysis of the deposited data

How the results depend on the processing

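Of 68 recomputed member counts, 16 moved by over 1.5 times. The other 52 are no measure of stability, since 22 of them were 0 in both and the 6 for H3K9ac at a q of 0.05 or less could not change. The control promoter peaks of the 4 marked genes rest on the authors' limit. At a −log10 q of at least 5 in both lists, 0 of the 4 genes kept a control promoter peak and 3 (PTGS2, EREG and BTC) kept a butyrate one. These 3 thus counted as gained, where the main setting has 0 gained. Over all genes the promoter shares at this limit were 48.5% in control, 55.0% with butyrate and 7.44% gained. Control peaks at the 9 genes fell from 6 to 0. Butyrate peaks without a control overlap rose from 2 to 4, and control peaks without a butyrate overlap fell from 2 to 0. At a fold of at least 5, control promoter genes, control peaks and control-only peaks were 0, and 2 butyrate promoter genes (PTGS2 and EREG) and 2 butyrate peaks remained. PTGS2 and EREG thus counted as gained there too. The shares over all genes were then 42.7% in control, 44.3% with butyrate and 8.02% gained. With 22215 top peaks from each list, butyrate peaks at the 9 genes came to 3, with 0 lacking a control overlap, and AREG had a promoter peak in control but not with butyrate. Among all genes, 2.66% lost and 3.28% gained a promoter peak at that setting. Inside the genes only, butyrate peaks without a control overlap numbered 1. The H4K16ac peak of TNFAIP6, also control-only, kept its place at a q of 0.05 or less, while the count was 0 at a −log10 q of at least 5 and 0 at a fold of at least 5. A 2.5 kb promoter window, an overlap of 0.5 of the shorter peak and counting of summits moved no member count by over 1.5 times, but the 2.5 kb window moved the H4K16ac promoter shares over all genes to 27.0% in control, 13.0% with butyrate and 6.16% gained. No paired analysis was possible because each group has 1 library.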
